A study of Mus musculus with 22 samples.

Results

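The proteasome genes described here are the 46 of the 12596 genes in the table whose symbol begins with Psm followed by a letter from a to g and a digit. They comprise 14 constitutive subunits of the core particle (7 alpha and 7 beta), 17 subunits of the regulatory particle (6 base ATPases, 3 other base subunits and 8 lid subunits), 7 assembly chaperones, 2 inducible beta subunits, and 6 genes of other activators or of the inhibitor. Another 5 RefSeq protein-coding symbols of the same form (Psma8, Psmb9, Psmb11, Psmc3ip and Psme3ip1) were not in the table under these symbols and were not analysed here.

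The study compared mice infused with hTyr (human tyrosinase, an enzyme that drives formation of the pigment neuromelanin) with mice infused with EYFP, a fluorescent control protein, in the locus coeruleus, the main noradrenergic nucleus of the brain. Mice of all groups had a C57Bl/6 background and came from a cross of Th-cre with Slc6a2-eGFP/Rpl10a, so that the controls also carried both transgenes. Regulatory sequence of the noradrenaline transporter gene Slc6a2 drives the eGFP/Rpl10a ribosomal tag, and ribosomes from noradrenergic cells can then be pulled down with their RNA (the IP libraries); the input libraries are the hindbrain RNA before that step. There were 5 hTyr and 6 EYFP animals, each with 1 IP and 1 input library, giving 22 libraries from 11 animals. Age, sex, interval after infusion and dose are not stated in the sources used here. The tag marks ribosomes of cells that express the transgene and not of infused cells only, so an IP library holds RNA of all tagged cells.

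The proteasome degrades proteins marked with ubiquitin. Its core particle is a stack of alpha rings, which gate the entry, around beta rings, which hold the cutting sites; the regulatory particle caps the stack, and receptors at its base bind ubiquitin, its lid strips ubiquitin off, and the ATPases of its base unfold the protein. Dedicated chaperones build both particles, other caps such as PA28 and PA200 can replace the regulatory particle, and in neurons, which do not divide, the system is a main route for removal of damaged and short-lived proteins.

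The promoters of 4 members are shown because these genes frame the results: Psmb5 and Psmb6 encode catalytic subunits that rose with the rest of the core, Psmc6 had the largest rise among the members in the IP and Psme3 the largest fall. Each sequence is the 250 bases before a RefSeq transcription start, 5′ to 3′ on the gene's strand (RefSeq sequence, GRCm38.p6). Capitals mark matches to TGACNNNGC, the core of the antioxidant response element, searched on both strands. The Psmb5 window is chr14:54617996-54618245 (minus strand), that of Psmb6 is chr11:70525107-70525356 (plus), that of Psmc6 is chr14:45329574-45329823 (plus) and that of Psme3 is chr11:101315963-101316212 (plus).
Psmb5: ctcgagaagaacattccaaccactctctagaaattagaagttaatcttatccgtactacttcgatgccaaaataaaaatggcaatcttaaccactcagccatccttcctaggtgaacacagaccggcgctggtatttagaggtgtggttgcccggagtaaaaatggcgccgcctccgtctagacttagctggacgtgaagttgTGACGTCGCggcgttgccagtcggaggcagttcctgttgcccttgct
Psmb6: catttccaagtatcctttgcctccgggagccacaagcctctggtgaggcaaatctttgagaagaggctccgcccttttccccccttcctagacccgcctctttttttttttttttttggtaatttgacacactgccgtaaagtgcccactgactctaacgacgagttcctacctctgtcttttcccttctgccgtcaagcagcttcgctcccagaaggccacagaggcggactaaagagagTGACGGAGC
Psmc6: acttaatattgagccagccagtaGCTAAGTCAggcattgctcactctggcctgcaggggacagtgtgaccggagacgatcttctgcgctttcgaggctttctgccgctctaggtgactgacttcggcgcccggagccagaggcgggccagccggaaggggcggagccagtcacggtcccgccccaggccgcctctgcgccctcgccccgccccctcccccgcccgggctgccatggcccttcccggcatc
Psme3: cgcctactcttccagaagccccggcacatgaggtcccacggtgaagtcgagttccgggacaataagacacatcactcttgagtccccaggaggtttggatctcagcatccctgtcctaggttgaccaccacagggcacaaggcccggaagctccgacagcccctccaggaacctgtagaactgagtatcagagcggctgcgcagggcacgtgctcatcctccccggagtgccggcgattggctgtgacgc
Counted from that start, the match begins at position -47 in Psmb5 and -9 in Psmb6, both in the forward direction. In Psmc6 it begins at -227 on the other strand, and the printed Psme3 window holds none. The RefSeq gene Psmb6 begins at 70525324, before the start used for its window, so its match lies inside the gene. Over full windows of 300 bases (250 before and 50 after the start), 6 of 42 member windows, from 39 members, held the motif (14.3%), and the other matches were in Psmd9, Psmd12 and Psme4. The share was 12.4% over all 32851 RefSeq windows and 14.1% over the 12446 windows of genes in the table. Within the core, 0 of 8 windows of alpha genes and 2 of 4 windows of beta genes held the motif, the latter being Psmb5 and Psmb6. A window was lacking for 7 members.

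Depth as recovered from the values was 12654489 to 25100142 reads per library, with hTyr IP libraries the shallowest group (median 14611510). All 10 noradrenergic markers rose in the IP over input in each treatment, by a median log2 change of 1.96 in EYFP and 2.64 in hTyr animals; their summed level was 610 to 1290 CPM (reads scaled to the library's size) in EYFP IP, 743 to 2100 in hTyr IP, 170 to 202 in EYFP input and 174 to 217 in hTyr input. RNA of other cells was present in the IP as well: the summed level of 8 oligodendrocyte markers was 5930 to 8230 CPM in hTyr IP and 5970 to 7690 in EYFP IP, against 6340 to 8930 over the inputs. The 9 markers of other neurons summed to 1100 to 1520 CPM over the IPs and 858 to 1160 over the inputs, and no marker of any list was at 0 in any library. Of 7 astrocyte markers 3 were higher and 1 lower in IP in EYFP and 4 and 1 in hTyr animals; of 8 microglial markers 1 was lower in EYFP, and 1 was higher and 1 lower in hTyr; of 4 endothelial markers 2 were higher in hTyr and 0 passed in EYFP. Slc6a2 was the only gene past the threshold between hTyr and EYFP input (log2 change -0.91, adjusted p = 0.0339, limma).

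Core, regulatory and assembly genes differed in how far the IP departed from the input. In EYFP animals, 32 of the 46 genes were higher in IP than in input at an adjusted p under 0.05 (limma, Benjamini-Hochberg over all 12596 genes), 2 were lower (Psme3 and Psmc5) and 12 did not pass; among all genes 56.5% passed, 28.5% higher and 28.1% lower. In hTyr animals 29 were higher, 3 were lower (Psme3, Psmc5 and Psmd10) and 14 did not pass, against 54.4% of all genes passing, 27.4% higher and 27% lower. The median log2 change of the members was 0.42 in EYFP and 0.41 in hTyr animals, where the medians over all genes were -0.03 and -0.04. Levels are relative to the other RNA of the library, and more proteasome RNA per cell cannot be told apart from a different mix of cells in bulk samples such as these. Noradrenergic markers and, in 7 of 9 cases in EYFP and 6 of 9 in hTyr, markers of other neurons were also higher in the IP; their part in these differences was not tested.

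**Figure D1:**
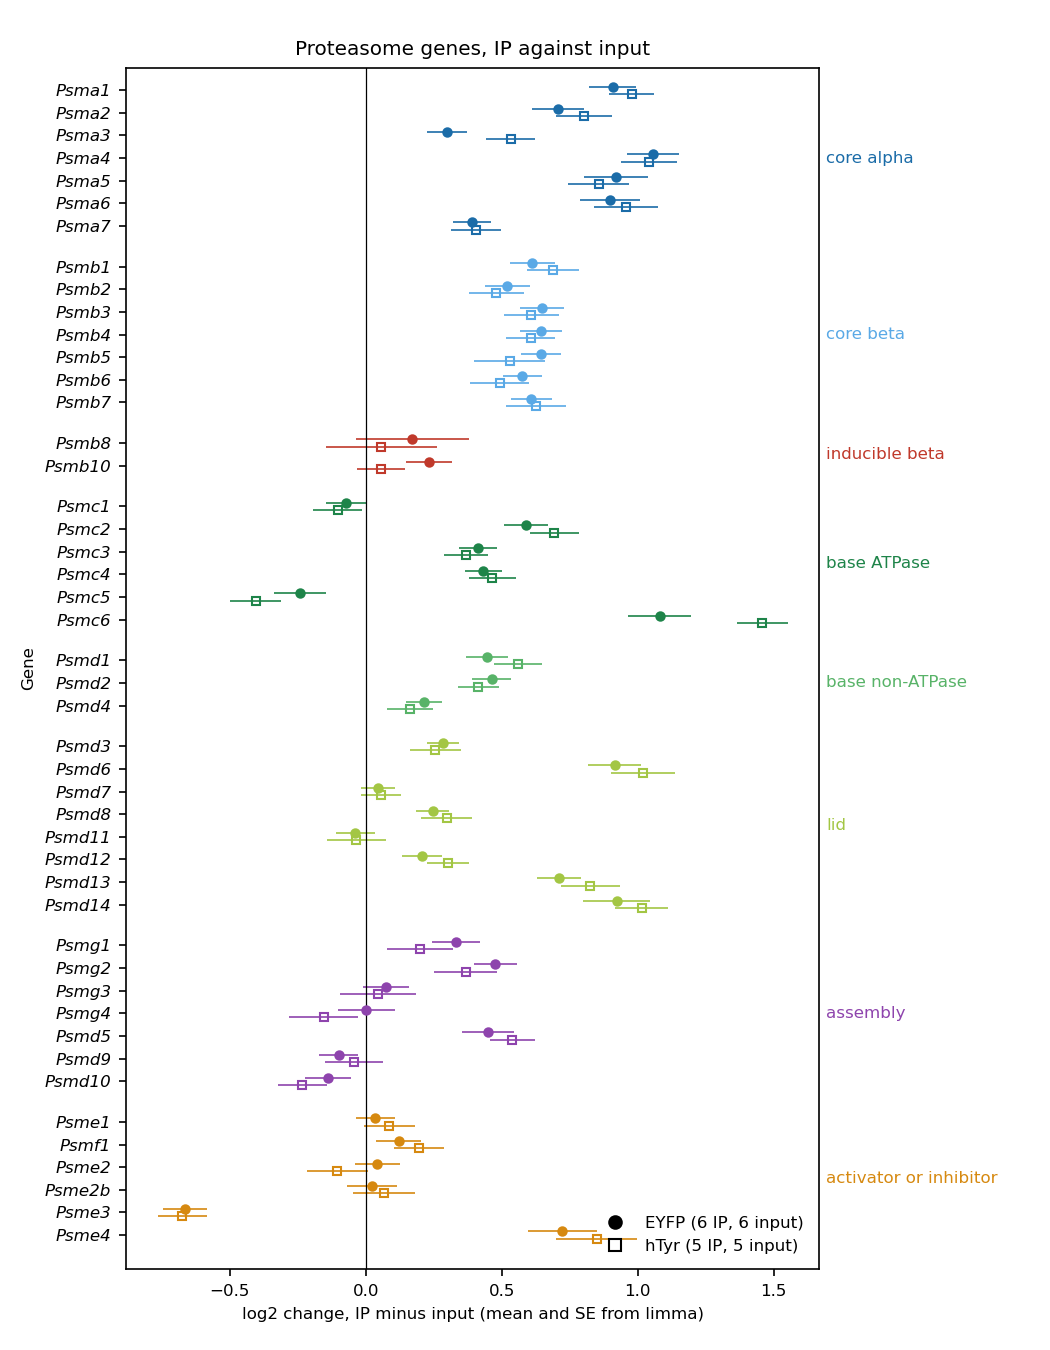
Log2 change of IP against input for each proteasome gene (x axis, log2 scale), grouped by class on the y axis; filled circles are EYFP animals, open squares hTyr animals and bars the limma standard errors. The core genes all lie right of 0, from 0.30 to 1.06 in EYFP, whereas the assembly genes run from -0.14 to 0.48 in EYFP and Psme3 and Psme4 lie at opposite ends of the activators.

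All 14 core genes rose, with medians of 0.64 in EYFP and 0.62 in hTyr animals. In the regulatory particle, 13 of 17 rose and 1 fell in EYFP (median 0.41), and 12 rose and 1 fell in hTyr (median 0.37). Of the 7 assembly genes, 3 rose in EYFP (median 0.07, with 0.02 to 0.20 over the alternatives), while 2 rose and 1 fell in hTyr (median 0.05, with -0.04 to 0.17 over the alternatives). The 6 activator and inhibitor genes had 1 rise (Psme4) and 1 fall (Psme3) in each treatment. With a trend on transcript length and GC content removed, the core count was 13 of 14 in both treatments, since the change of Psma3 went to 0.00 in EYFP and 0.10 in hTyr animals.

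The order of the class means held within animals. The mean IP minus input difference of the core genes was above that of the regulatory genes, and the regulatory mean above the assembly mean, in 11 of 11 animals. In EYFP animals these means were 0.67 ± 0.21 for core, 0.39 ± 0.12 for regulatory and 0.16 ± 0.11 for assembly genes (SD, n = 6). In hTyr animals they were 0.69 ± 0.28, 0.43 ± 0.09 and 0.10 ± 0.18 (SD, n = 5). Medians over the genes of a class gave another order in hTyr animal IP_508, at 0.357 for regulatory and 0.393 for assembly genes. The alpha mean was above the beta mean in 11 of 11 animals as well. It was 0.74 ± 0.24 against 0.61 ± 0.18 in EYFP (SD, n = 6) and 0.80 ± 0.26 against 0.58 ± 0.31 in hTyr (SD, n = 5). The beta mean alone was below the regulatory mean in hTyr animals IP_501 (0.365 against 0.425) and IP_510 (0.292 against 0.332). The core means ranged from 0.42 to 1.01 over EYFP animals and from 0.44 to 1.13 over hTyr animals, so the ranges of the treatments overlapped.

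**Figure D2:**
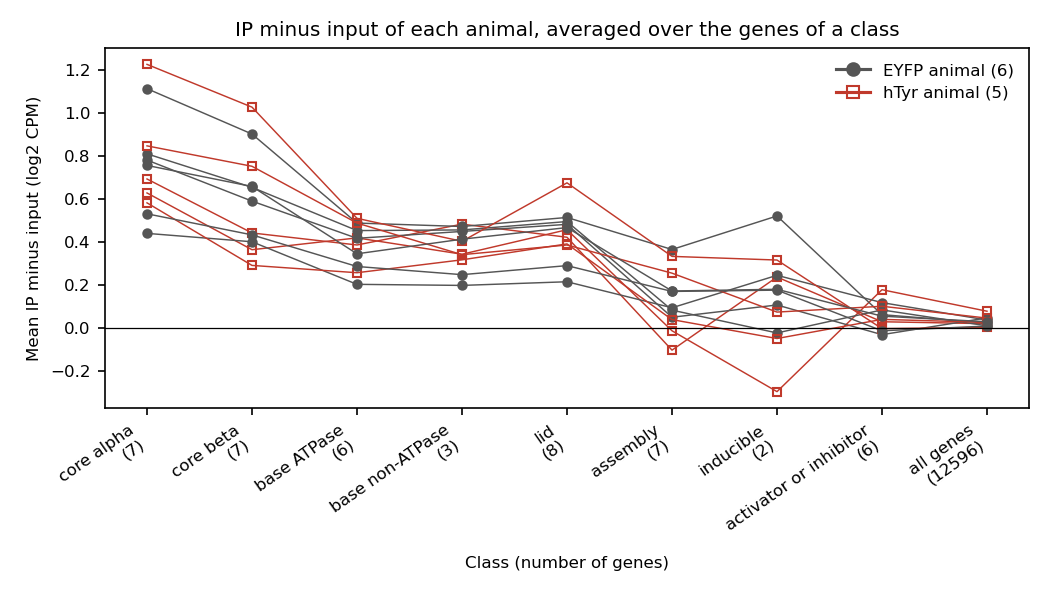
Mean IP minus input difference (y axis, log2 CPM) over the genes of each class (x axis, number of genes in brackets), with 1 line per animal: filled circles for the 6 EYFP and open squares for the 5 hTyr animals. Each line is lower at the assembly class, at -0.10 to 0.37, than at the core alpha class, at 0.44 to 1.23. The lines do not fall at every step between these classes, and the mean over all genes lies near 0.

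Gene by gene, 29 members were higher in IP in every one of the 11 animals: all 14 core, 12 of 17 regulatory and 2 of 7 assembly genes (Psmg2 and Psmd5), and Psme4. Over all genes that share was 22.8%. Psmc5 and Psme3 were lower in every animal, as were 21.4% of all genes. The lowest IP library lay above the highest input library for 27 members in EYFP, where 16.7% of all genes did so, and for 27 in hTyr, where 20.7% did. The opposite separation held for 1 member in EYFP (13.4% of all genes) and for 2 in hTyr (16.8%). Calls in the same direction in both treatments were made for 31 members, 29 higher and 2 lower, which is 67.4% of the members and 46.3% of all genes. Psmb10, Psmd4 and Psmg1 passed in EYFP only and Psmd10 in hTyr only; the difference between treatments did not pass for any of them, and Psmd4, Psmd10 and Psmg1 passed in the other treatment as well under some of the alternatives given below for each gene.

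Among the alpha subunits, which form the outer rings of the core, 5 of 7 rose by 0.71 or more in log2 in both treatments, and Psma7 (0.39 ± 0.07 SE in EYFP, 0.41 ± 0.09 in hTyr) and Psma3 rose least. Psma4 (chr9:54950781-54958034, plus strand) had the largest rise of the core in EYFP. Its EYFP input libraries ran from 5.82 through a median of 5.99 to 6.19 log2 CPM, and its EYFP IP libraries from 6.72 through 7.07 to 7.34. In hTyr animals the inputs were 5.89, 6.01, 6.01, 6.10 and 6.16 and the IPs 6.85, 6.97, 6.997, 7.14 and 7.43. Every IP library was above every input library in both treatments. The log2 change was 1.06 ± 0.10 SE in EYFP (adjusted p = 9.13e-07) and 1.04 ± 0.10 in hTyr (adjusted p = 3.86e-07), a 2.08-fold and a 2.06-fold difference.

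Psma3, at chr12:70969283-70995877, stood lower. EYFP inputs ran from 5.40 through 5.51 to 5.55 log2 CPM and EYFP IPs from 5.58 through 5.81 to 6.01. The hTyr inputs were 5.40, 5.40, 5.42, 5.50 and 5.52, and the hTyr IPs 5.77, 5.86, 6.01, 6.05 and 6.20. The groups did not overlap in either treatment, and the step was wider in hTyr animals. The change was 0.30 ± 0.07 SE in EYFP (adjusted p = 0.00284) and 0.53 ± 0.09 in hTyr (adjusted p = 0.000115).

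The 7 beta subunits of the inner rings moved within a narrow band, by 0.52 to 0.65 in EYFP and by 0.48 to 0.69 in hTyr animals. Psmb5, Psmb6 and Psmb7 carry the cutting sites. For Psmb5, the chymotrypsin-like subunit whose promoter is printed above, EYFP inputs ran from 6.54 through 6.72 to 6.88 log2 CPM and EYFP IPs from 7.23 through 7.37 to 7.52. The hTyr inputs were 6.43, 6.52, 6.84, 7.09 and 7.10 and the hTyr IPs 7.18, 7.19, 7.30, 7.31 and 7.64. IP and input stayed apart, although the hTyr inputs spread more (SD 0.31) than the EYFP inputs (SD 0.12). The change was 0.64 ± 0.07 SE in EYFP (adjusted p = 3.73e-06) and 0.53 ± 0.13 in hTyr (adjusted p = 0.00248).

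Psmb6, the caspase-like subunit, had the highest level per transcript length of the core. Its EYFP inputs ran from 7.07 through 7.16 to 7.32 log2 CPM and its EYFP IPs from 7.58 through 7.75 to 7.93. Values were 7.02, 7.11, 7.25, 7.50 and 7.61 in hTyr input and 7.66, 7.74, 7.76, 7.81 and 7.99 in hTyr IP. The lowest IP and the highest input of the hTyr animals were thus closer together than in EYFP. It rose by 0.58 ± 0.07 SE in EYFP (adjusted p = 8.87e-06) and by 0.49 ± 0.11 in hTyr (adjusted p = 0.00108). Psmb7, the trypsin-like subunit, ran from 7.28 through 7.45 to 7.51 in EYFP input and from 7.83 through 8.05 to 8.20 in EYFP IP. Its hTyr inputs were 7.27, 7.29, 7.62, 7.75 and 7.80 and its hTyr IPs 8.03, 8.09, 8.14, 8.21 and 8.41. It was thus higher in IP without overlap in both treatments, by 0.61 ± 0.08 SE and 0.63 ± 0.11 (adjusted p = 7.94e-06 and 0.000167). Named pseudogenes exist for Psma5, Psmb5, Psmb6 and Psmb7. The exons of Psmb7 share 405 bases with Nek6 on the other strand, and those of Psmb5 share 109 bases with Mir686 on the same strand. Reads of these genes could therefore be split or shared by the counting.

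The inducible beta subunits take the catalytic places in the immunoproteasome, a form best known from immune cells. Psmb8 was sparsely read, at 75 to 188 reads per library. It ran from 2.36 through 2.68 to 3.15 log2 CPM in EYFP input and from 2.21 through 3.03 to 3.33 in EYFP IP. In hTyr animals it was at 2.35, 2.63, 2.90, 3.12 and 3.22 in input and at 2.39, 2.74, 2.97, 3.18 and 3.22 in IP. The groups overlapped throughout, and the differences were 0.17 ± 0.21 SE in EYFP and 0.06 ± 0.20 in hTyr (adjusted p = 0.499 and 0.829). Its exons share 498 bases with Gm20496 on the other strand. Psmb10 ran from 5.77 through 5.90 to 6.03 in EYFP input and from 5.89 through 6.13 to 6.39 in EYFP IP, and passed there (0.23 ± 0.09 SE, adjusted p = 0.029). In hTyr animals its inputs were 5.87, 5.93, 6.04, 6.06 and 6.11 and its IPs 5.85, 6.03, 6.06, 6.14 and 6.22, which overlap (0.06 ± 0.09 SE, adjusted p = 0.604). Animals are named here by the title of their IP library, and the EYFP call of Psmb10 was lost with quantile normalization (0.18) and without animal IP_507 (0.175), IP_511 (0.21) or IP_512 (0.24). Microglial markers, which come from the cells of the brain that carry much of its immune gene expression, summed to 195 to 390 CPM in EYFP IP and 191 to 329 in EYFP input; their part in these values was not tested.

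Base ATPases, the ring that unfolds the substrate, held both the largest rise and 1 of the falls. Psmc6 (chr14:45329823-45349074, plus strand) ran from 5.77 through 6.03 to 6.15 log2 CPM in EYFP input and from 6.58 through 7.21 to 7.42 in EYFP IP. In hTyr animals its inputs were 5.65, 5.92, 5.94, 5.98 and 6.08 and its IPs 7.20, 7.32, 7.40, 7.41 and 7.54. IP and input were separate in both treatments, with 1 EYFP IP library at 6.58 below the other IPs. The change was 1.08 ± 0.12 SE in EYFP (2.11-fold, adjusted p = 2.76e-06) and 1.46 ± 0.09 in hTyr (2.75-fold, adjusted p = 7.68e-09).

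Psmc5 (chr11:106256185-106263112, plus strand) went the other way. It ran from 8.95 through 9.13 to 9.36 log2 CPM in EYFP input and from 8.61 through 8.96 to 9.11 in EYFP IP. In hTyr animals the inputs stood at 9.11, 9.14, 9.20, 9.31 and 9.33 and its hTyr IPs 8.59, 8.74, 8.75, 8.93 and 9.07. The EYFP groups overlapped, the hTyr groups did not, and the IP of each of the 11 animals was below its own input. The change was -0.24 ± 0.10 SE in EYFP (adjusted p = 0.0396) and -0.40 ± 0.09 in hTyr (adjusted p = 0.0017). The EYFP call was lost without animal IP_504, IP_506, IP_507 or IP_512 (changes of -0.25 to -0.21), and also with no trend in the prior variance. The other ATPases were Psmc2 (0.59 in EYFP, 0.69 in hTyr), Psmc3 (0.41, 0.37) and Psmc4 (0.43, 0.47), which rose, and Psmc1, which did not pass (-0.07 ± 0.07 SE, -0.10 ± 0.09).

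Among the other base subunits, Psmd1, a scaffold of the base, rose by 0.45 ± 0.08 SE in EYFP and 0.56 ± 0.09 in hTyr. Its exons share 553 bases in all with Gm21972 on the same strand and Htr2b on the other strand. Psmd2, the second scaffold, ran from 7.68 through 7.71 to 7.80 log2 CPM in EYFP input and from 7.88 through 8.25 to 8.32 in EYFP IP. The inputs of the hTyr animals were 7.67, 7.73, 7.73, 7.77 and 7.80 and its hTyr IPs 8.03, 8.07, 8.14, 8.22 and 8.31. All IPs were above all inputs, and Psmd2 rose by 0.46 ± 0.07 SE and 0.41 ± 0.08 (adjusted p = 6.06e-05 and 0.000232). Psmd4, a ubiquitin receptor, ran from 7.31 through 7.40 to 7.47 in EYFP input and from 7.42 through 7.60 to 7.76 in EYFP IP. It was at 7.30, 7.36, 7.38, 7.61 and 7.64 in hTyr input and at 7.56, 7.57, 7.63, 7.64 and 7.71 in hTyr IP. Both pairs of groups overlapped, and it passed in EYFP (0.21 ± 0.07 SE, adjusted p = 0.0121) but not in hTyr (0.16 ± 0.08, adjusted p = 0.112). Psmd4 passed in hTyr with sample quality weights or with the length and GC trend removed (0.21 to 0.23), and without animal IP_507 its EYFP call was lost (0.17).

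The lid ranged widely. Psmd14, the deubiquitinase that removes ubiquitin chains at the lid, ran from 5.65 through 5.98 to 6.04 log2 CPM in EYFP input and from 6.26 through 6.97 to 7.07 in EYFP IP. For hTyr the inputs were 5.78, 5.82, 5.82, 5.85 and 6.14 and its hTyr IPs 6.72, 6.80, 6.81, 7.02 and 7.13. Psmd14 was higher in IP without overlap in both treatments, by 0.92 ± 0.12 SE (adjusted p = 1.54e-05) and 1.01 ± 0.10 (adjusted p = 3.3e-07). Psmd6, a structural lid subunit, ran from 5.68 through 6.02 to 6.22 in EYFP input and from 6.59 through 6.95 to 7.13 in EYFP IP. In hTyr it was at 5.87, 5.96, 5.97, 6.03 and 6.33 in input and at 6.70, 6.88, 7.19, 7.23 and 7.26 in IP. It rose as clearly, by 0.91 ± 0.10 SE and 1.02 ± 0.12 (adjusted p = 2.59e-06 and 1.97e-06). Psmd13 rose by 0.71 and 0.83, with 342 exonic bases shared with Sirt3 on the other strand. Psmd3 (0.28, 0.26), Psmd8 (0.25, 0.30) and Psmd12 (0.21, 0.30) rose less, and each lost its call in 1 treatment when single animals were left out. Those were animals IP_502, IP_508 and IP_509 for Psmd3 in hTyr (a call also lost with no trend in the prior variance), IP_509 for Psmd8 in hTyr, and IP_504, IP_506, IP_507 and IP_511 for Psmd12 in EYFP. With the length and GC trend removed Psmd12 did not pass in either treatment (0.06 and 0.08). Psmd7, the partner of Psmd14, and Psmd11 did not pass: their values were 0.05 ± 0.06 SE and 0.06 ± 0.07 for Psmd7, and -0.04 ± 0.07 and -0.03 ± 0.11 for Psmd11.

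**Figure D3:**
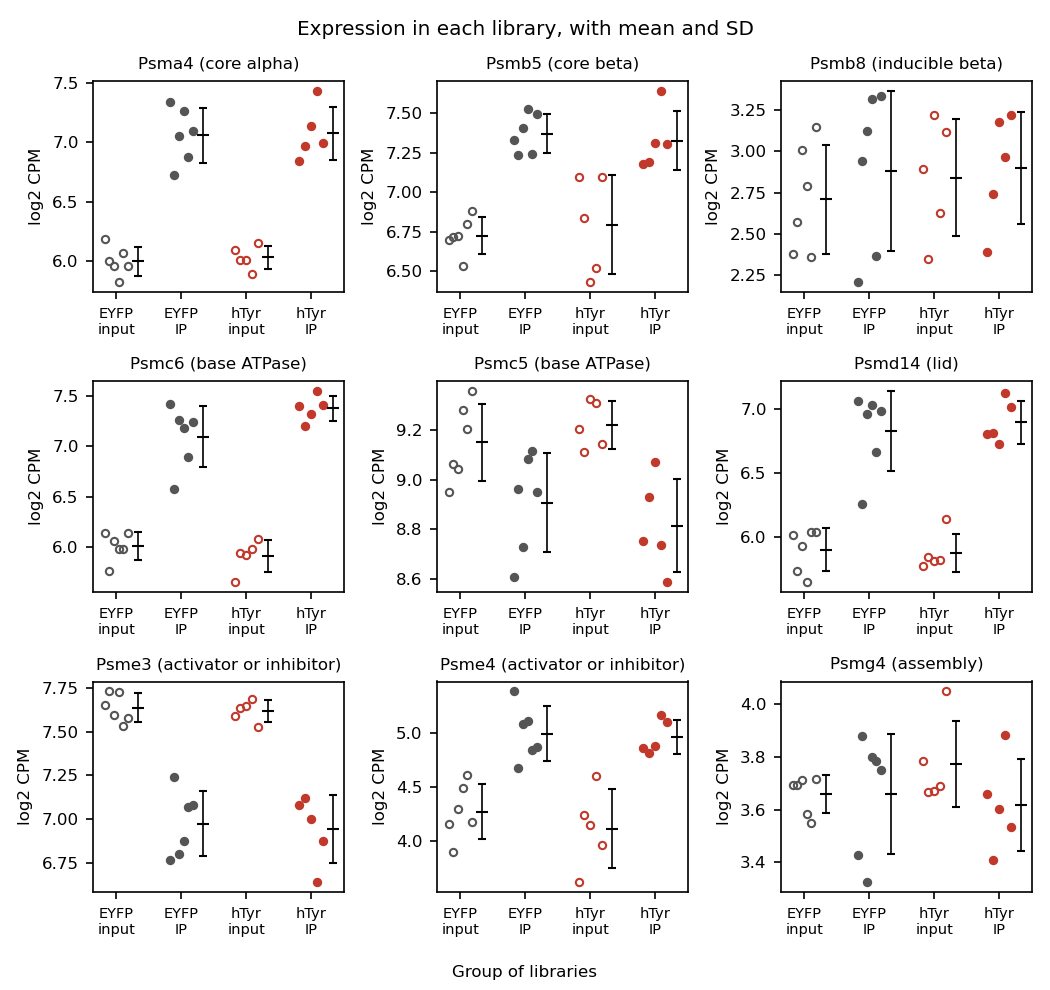
Level of 9 proteasome genes in each library (y axis, log2 CPM, each panel on its own scale) for the 4 groups on the x axis; points are libraries, open for input and filled for IP, and bars give the mean and SD. Psma4, Psmb5, Psmc6 and Psmd14 are higher in IP, Psme3 is lower, and the hTyr and EYFP points overlap within each fraction.

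Assembly genes showed the smallest shift of the 3 main classes. Psmg1 and Psmg2 form a chaperone pair for the alpha ring. Psmg1 ran from 3.92 through 3.999 to 4.215 log2 CPM in EYFP input and from 4.207 through 4.34 to 4.60 in EYFP IP, with 1 IP library just inside the input range, and rose by 0.33 ± 0.09 SE (adjusted p = 0.00433). hTyr inputs measured 4.01, 4.04, 4.20, 4.21 and 4.46 and its hTyr IPs 4.18, 4.19, 4.41, 4.52 and 4.62, which overlap (0.20 ± 0.12 SE, adjusted p = 0.17). Without animal IP_501 the hTyr value was 0.32 and passed. For Psmg2, EYFP inputs ran from 3.996 through 4.24 to 4.30 and EYFP IPs from 4.55 through 4.63 to 4.81. The hTyr inputs were 4.09, 4.36, 4.40, 4.45 and 4.50 and the hTyr IPs 4.51, 4.55, 4.79, 4.80 and 4.98. Psmg2 was thus separate in both treatments, with rises of 0.48 ± 0.08 SE and 0.37 ± 0.11 (adjusted p = 0.000101 and 0.0124). The hTyr call of Psmg2 was lost without animal IP_509 (0.24).

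Psmg3 and Psmg4, the second chaperone pair of the alpha ring, did not pass in either treatment. Psmg3 ran from 4.03 through 4.14 to 4.26 log2 CPM in EYFP input and from 3.97 through 4.20 to 4.38 in EYFP IP. In hTyr it was at 3.96, 4.14, 4.30, 4.32 and 4.47 in input and at 3.85, 4.21, 4.24, 4.54 and 4.57 in IP. Inputs and IPs overlapped, and the differences were 0.07 ± 0.08 SE and 0.05 ± 0.14. The exons of Psmg3 share 280 bases with Gm26938 on the same strand. Psmg4 ran from 3.55 through 3.69 to 3.72 in EYFP input and from 3.32 through 3.77 to 3.88 in EYFP IP. Its hTyr inputs were 3.67, 3.67, 3.69, 3.79 and 4.05 and its hTyr IPs 3.41, 3.54, 3.60, 3.66 and 3.88. These overlapped too, and the differences were 0.00 ± 0.10 SE and -0.15 ± 0.13. Counts were low for all 4 Psmg genes, at 134 to 565 reads per library.

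The chaperones of the ATPase ring were Psmd5, Psmd9 and Psmd10. Psmd5 ran from 5.48 through 5.62 to 5.87 log2 CPM in EYFP input and from 5.80 through 6.14 to 6.38 in EYFP IP. In hTyr animals the inputs stood at 5.64, 5.72, 5.72, 5.74 and 5.89 and its hTyr IPs 6.17, 6.20, 6.28, 6.32 and 6.43. It was the assembly gene with the largest rise in hTyr animals, by 0.45 ± 0.10 SE in EYFP, where the groups overlapped, and 0.54 ± 0.08 in hTyr, where they did not (adjusted p = 0.000854 and 4.26e-05). Psmd10, also known as gankyrin, ran from 4.75 through 4.95 to 4.97 in EYFP input and from 4.46 through 4.83 to 4.96 in EYFP IP. In hTyr it was at 4.90, 4.98, 4.98, 4.99 and 5.08 in input and at 4.64, 4.70, 4.71, 4.76 and 4.95 in IP. It fell in hTyr (-0.23 ± 0.09 SE, adjusted p = 0.0374) and did not pass in EYFP (-0.14 ± 0.09, adjusted p = 0.178), where removal of the length and GC trend took it past the threshold (-0.29). The hTyr call was lost without animal IP_501, IP_502, IP_509 or IP_510 (changes of -0.24 to -0.20). Psmd9 ran from 5.05 through 5.16 to 5.35 in EYFP input and from 4.92 through 5.08 to 5.22 in EYFP IP. It was at 5.04, 5.05, 5.16, 5.35 and 5.44 in hTyr input and at 4.92, 5.11, 5.20, 5.25 and 5.36 in hTyr IP. Psmd9 overlapped in both treatments and did not pass (-0.10 ± 0.07 SE and -0.04 ± 0.11), and its exons share 1849 bases with Gm26745 on the other strand.

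Activators that can replace the regulatory particle diverged. Psme3 encodes PA28 gamma, a nuclear cap, and lies at chr11:101316213-101323537 (plus strand). It ran from 7.53 through 7.62 to 7.73 log2 CPM in EYFP input and from 6.77 through 6.97 to 7.24 in EYFP IP. The inputs of the hTyr animals were 7.53, 7.59, 7.63, 7.65 and 7.69 and its hTyr IPs 6.64, 6.88, 7.0, 7.08 and 7.12. Every IP library was below every input library. The change was -0.66 ± 0.08 SE in EYFP (adjusted p = 6.74e-06) and -0.67 ± 0.09 in hTyr (adjusted p = 1.25e-05), so the IP level was 0.631 and 0.627 of the input level.

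Psme4 encodes PA200, another nuclear cap, and moved opposite to Psme3. It ran from 3.90 through 4.24 to 4.61 log2 CPM in EYFP input and from 4.68 through 4.97 to 5.39 in EYFP IP. The hTyr inputs were 3.62, 3.96, 4.14, 4.24 and 4.61 and the hTyr IPs 4.81, 4.86, 4.88, 5.10 and 5.17. The groups were separate in both treatments, and Psme4 rose by 0.72 ± 0.13 SE (adjusted p = 0.000186) and 0.85 ± 0.15 (adjusted p = 0.000146). Psme1 and Psme2 encode the 2 chains of the interferon-inducible PA28 cap, and neither passed. Psme1 ran from 5.51 through 5.62 to 5.76 in EYFP input and from 5.46 through 5.68 to 5.80 in EYFP IP; in hTyr it was at 5.56, 5.62, 5.62, 5.67 and 5.72 in input and at 5.48, 5.61, 5.75, 5.85 and 5.94 in IP. Psme2 ran from 3.79 through 3.87 to 4.07 in EYFP input and from 3.82 through 3.96 to 4.03 in EYFP IP; in hTyr it was at 3.78, 3.84, 3.93, 3.998 and 4.01 in input and at 3.62, 3.75, 3.77, 3.93 and 3.96 in IP. Inputs and IPs of both genes overlapped, with differences of 0.04 ± 0.07 SE and 0.09 ± 0.09 for Psme1 and of 0.04 ± 0.08 and -0.10 ± 0.11 for Psme2. Psme2b is a near-identical copy of Psme2 (0.02 and 0.07, not passed), and reads could be split between them. Psmf1, an inhibitor of the core particle, ran from 5.28 through 5.49 to 5.54 in EYFP input and from 5.34 through 5.57 to 5.76 in EYFP IP. For hTyr the inputs were 5.32, 5.37, 5.49, 5.58 and 5.61 and its hTyr IPs 5.54, 5.54, 5.68, 5.77 and 5.80. These overlapped, and Psmf1 did not pass (0.12 ± 0.08 SE and 0.19 ± 0.09, adjusted p = 0.218 and 0.082).

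Between hTyr and EYFP, no proteasome gene passed in either fraction. In the IP, 0 of 46 members passed where 0.0556% of all genes did (7 genes, all higher), and 1 member, Psmc6, had an unadjusted p under 0.05, against 6.19% of all genes. Psmc6 was higher in hTyr IP by 0.28 ± 0.12 SE (unadjusted p = 0.0395, adjusted p = 0.791), and the 2 groups overlapped, at 7.20 to 7.54 against 6.58 to 7.42 log2 CPM. Of the members, 35 of 46 had a positive difference, against 6072 of all 12596 genes. Their median was 0.06, against 0.00 (-0.005) over all genes. Medians were 0.08 for core, 0.07 for regulatory and 0.06 for assembly genes. The next largest differences in the IP were 0.19 ± 0.10 SE for Psmd5 and 0.19 ± 0.10 for Psma3 (adjusted p = 0.827 and 0.817). The residual SD between libraries of a group had a median of 0.15 log2 units over the members, against 0.18 over all genes.

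**Figure D4:**
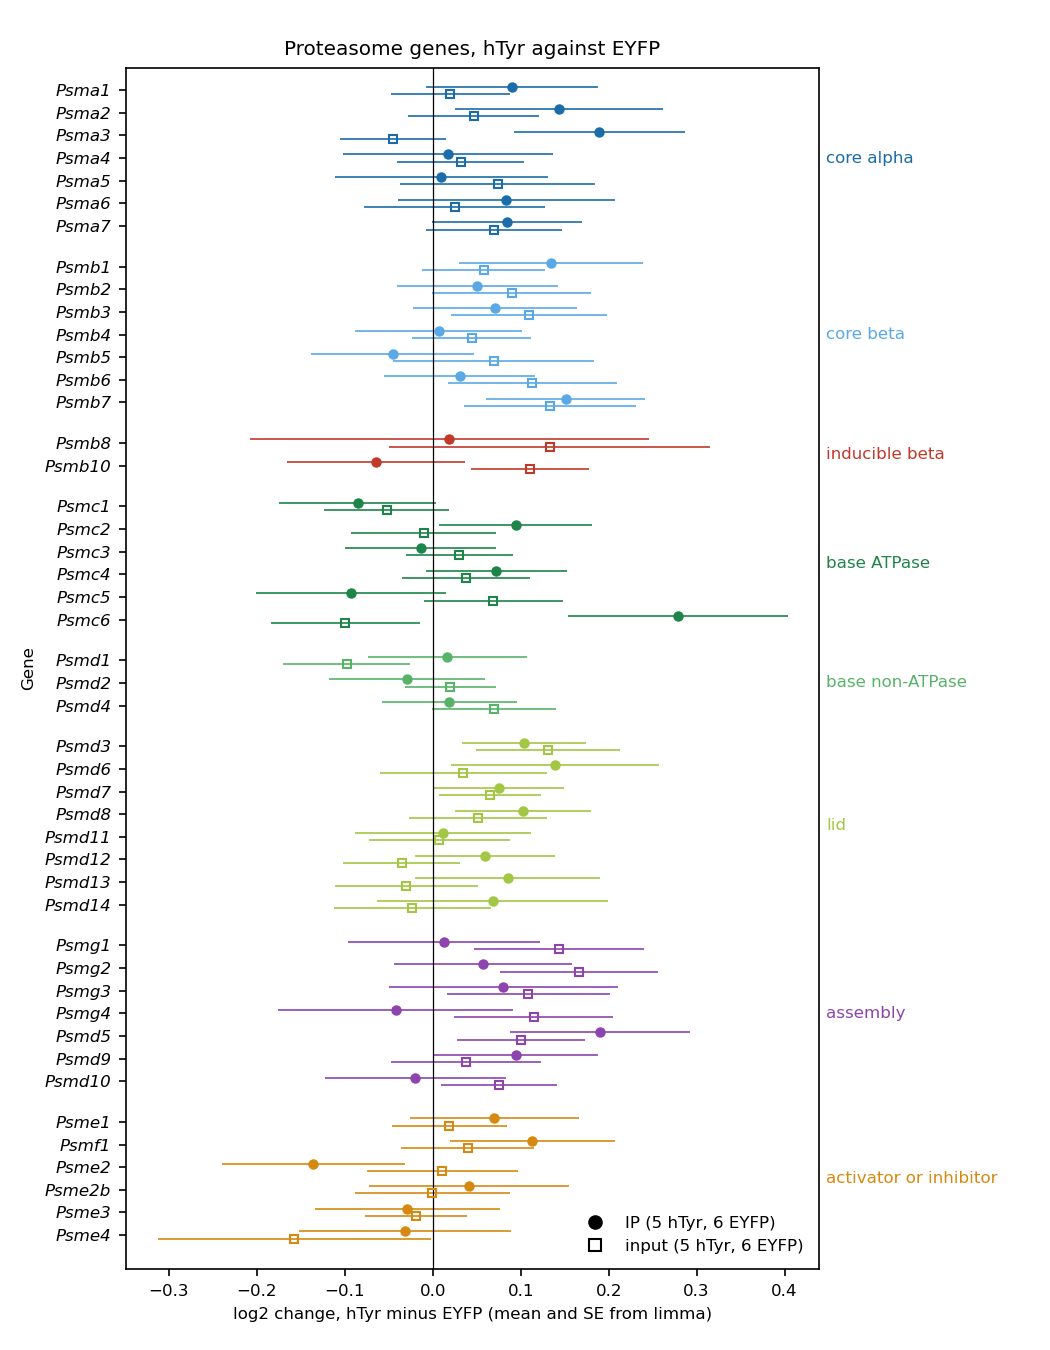
Log2 difference of hTyr against EYFP for each proteasome gene (x axis, log2 scale), grouped by class on the y axis; filled circles are the IP, open squares the input and bars the limma standard errors. All differences lie between -0.16 and 0.28, a narrower span than that of the IP against input changes, and none passed the threshold.

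In the input, 0 of 46 passed (0.00794% of all genes, 1 gene), and 0 had an unadjusted p under 0.05, against 3.03% of all genes. A positive difference was seen for 35 of 46 members here too, against 5840 of all 12596 genes. The median difference was 0.04, with 0.06 for core, 0.02 for regulatory and 0.11 for assembly genes, and -0.01 over all genes. The assembly genes were at 0.04 to 0.17 in the input and at -0.04 to 0.19 in the IP. The largest was Psmg2 in input (0.17 ± 0.09 SE, unadjusted p = 0.0826, adjusted p = 0.99).

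Whether the hTyr difference was the same in IP and input was tested as an interaction. No member passed (0 of 46, against 0.00794% of all genes), and 2 had an unadjusted p under 0.05, Psmc6 and Psma3, against 3.31% of all genes. The hTyr difference of Psmc6 was 0.28 in the IP and -0.10 in the input, an interaction of 0.38 ± 0.16 SE (unadjusted p = 0.0249, adjusted p = 0.996). That of Psma3 was 0.19 in the IP and -0.05 in the input, an interaction of 0.23 ± 0.11 (unadjusted p = 0.0461, adjusted p = 0.996).

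Levels were compared between genes per kilobase of the principal transcript, again on a log2 scale. In EYFP IP the core genes had a median of 7.45 log2 CPM per kb, the regulatory genes 6.47 and the assembly genes 4.31. In EYFP input the medians were 6.68, 6.08 and 4.11, so the classes kept their order. Psmc5 had the highest level of the members in all 4 groups (8.75 in EYFP input, 8.51 in EYFP IP), although it was lower in the IP. Next in EYFP IP came Psmb6 (8.09 ± 0.14, SD, n = 6) and Psmb4 (8.002 ± 0.18), whose means lay within each other's spread between libraries. The lowest were Psme4 (2.30 ± 0.25) and Psmb8 (2.18 ± 0.48), whose means also lay within each other's spread. The difference between the genes of each pair within libraries was not tested. Within the core, the beta subunits were more alike (SD across genes of 0.37 in EYFP IP) than the alpha subunits (SD 1.17), which ran from Psma3 at 4.28 to Psma7 at 7.58. The transcripts used had 2846 bases for Psma3 and 2911 for Psma2, against 914 to 1239 for the other alpha genes. The low value of Psma3 and the spread of the alpha subunits thus depend on the transcript chosen. The 7 assembly genes lay between 3.70 and 4.59 (SD 0.32).

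**Figure D5:**
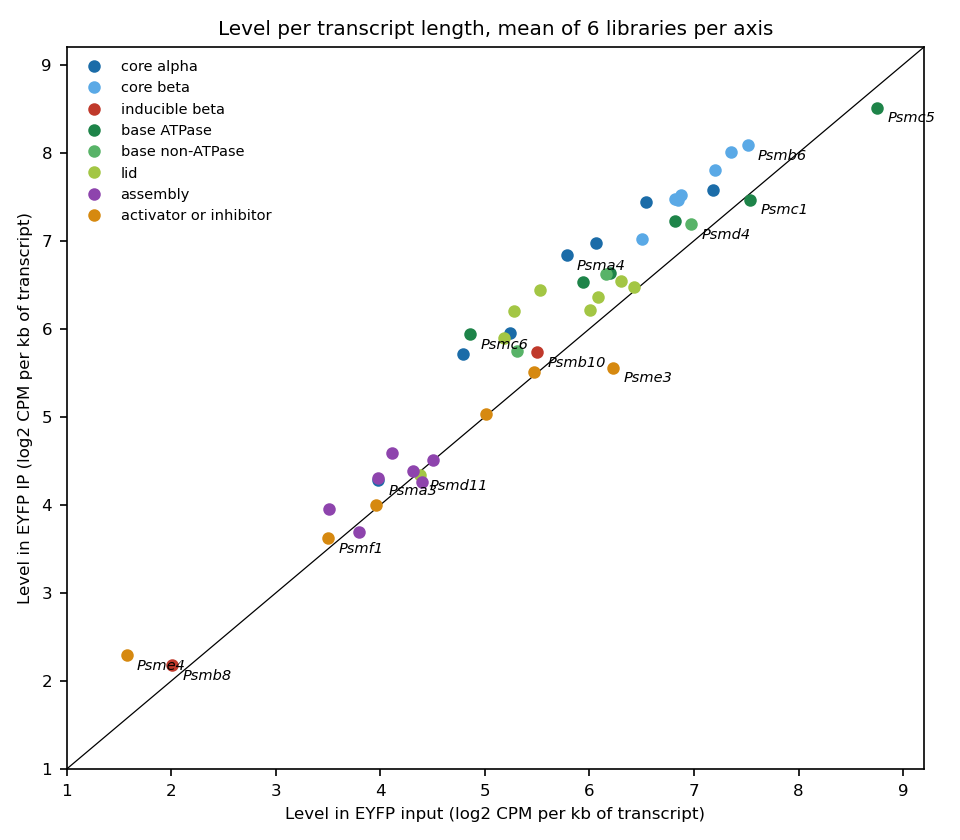
Level per transcript length of each proteasome gene in EYFP input (x axis) and EYFP IP (y axis), both in log2 CPM per kb, as the mean of 6 libraries; colours mark the class and the line marks equal levels. Core genes lie above the line, most of them at the upper right, assembly genes near it between about 3.5 and 4.6, and Psmc5 and Psme3 below it.

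Other genes of the pathway were followed from a list of 26 ubiquitin-proteasome genes outside the symbol rule, of which 25 were in the table. In EYFP animals 11 of the 25 were higher in IP and 7 lower (median 0.14), and in hTyr animals 12 were higher and 5 lower (median 0.03); over all genes 28.5% were higher and 28.1% lower in EYFP, and 27.4% and 27% in hTyr, so the counts of lower genes lie near the background share. Proteins that associate with the proteasome or feed it led the rises: the proteasome-bound deubiquitinase Usp14 (1.23 in EYFP, 1.42 in hTyr), the segregase Vcp (1.17, 1.26), the deglycosylase Ngly1 (0.96, 1.16), the proteasome adaptor Ecpas (0.96, 1.04) and the thioredoxin-like Txnl1 (0.73, 0.94). The 2 transcription factors on the list went in opposite directions. Nfe2l1, the factor known to drive proteasome genes when the proteasome is inhibited, was lower in IP (-0.40 ± 0.08 SE and -0.44 ± 0.07). Nfe2l2, the oxidative stress factor, was higher (0.82 ± 0.12 and 0.80 ± 0.14). The shuttle receptor Ubqln4 (-0.63, -0.66) fell in both treatments. Ddi2, the protease that activates the Nfe2l1 protein, fell in EYFP (-0.89 ± 0.21 SE, adjusted p = 0.0019) and did not pass in hTyr (-0.55 ± 0.23, adjusted p = 0.0532). Pomp, the chaperone that completes the core particle, was at 0.04 ± 0.07 and 0.00 ± 0.09, the receptor subunit Adrm1 at 0.04 ± 0.08 and 0.01 ± 0.10, and the lid subunit Sem1 at 0.14 ± 0.10 and -0.15 ± 0.11; none of these passed. No gene of the list passed between hTyr and EYFP in either fraction; Ubb, a polyubiquitin gene, was at 0.23 ± 0.10 SE in the IP (unadjusted p = 0.0319, adjusted p = 0.787).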

How the data were processed

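RNA was sequenced from 22 libraries: IP and input of 5 hTyr and 6 EYFP animals, paired by the animal number in the titles. The authors deposited 1 table of log2 values, described per the labels as filtered, normalized and log-transformed counts; STAR, featureCounts and mm10 are named in the submitters' processing notes without role or version, and the filter, normalization and use of strand are not given in the sources used here. The back-transformed values behaved as CPM: with a pseudocount averaging 2 reads, 100% of values came out as whole reads (tolerance 0.1 reads), and library sums were 972555 to 1040932. Reads outside the table are not used here.

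The deposited log2 values were tested with limma 3.58.1 in R 4.3.3 (lmFit, eBayes with trend), with Benjamini-Hochberg adjustment over all 12596 genes and a threshold of 0.05; fits were tested on simulated data. The 5 comparisons were hTyr against EYFP in IP and in input, IP against input in EYFP and in hTyr, and the interaction. Input libraries are the background of the IP. Libraries of the same animal deviated together from their group means (mean r = 0.448, range 0.279 to 0.626 over 11 animals, against -0.10 between animals), so the numbers pair them; the main fits have no block, and the fit with the replicate block is an alternative. The members, classes and lists were chosen with earlier results of these data known. Members described library by library were, by rule, a list of catalytic, inducible, assembly and activator genes, the largest rises and falls of IP against input, and the largest hTyr difference of each class. Gene coordinates are those of RefSeq, and strand, length and GC content those of GENCODE M21 (GRCm38). All 46 members had a length. Alternatives were other scalings, filters, pseudocounts, weights and spreads, voom on the recovered reads, and removal of each library's loess trend (span 0.4) on length and GC content. Others were marker scores as covariates, the replicate block and leaving out each animal. Marker scores were not used as covariates in the comparisons of IP against input. Figures were drawn with matplotlib 3.10.9 in Python 3.11.15.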

Additional observations from a re-analysis of the deposited data

Results flagged for a closer look

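Among the 25 members described library by library, 100 groups of libraries were tested for a library far from the others, and 3 were found, where chance gives 5. Psmb5 in hTyr IP was highest in animal IP_509, at 7.64 log2 CPM (7.639) with the next library at 7.31, a gap of 0.715 of the range of its 5 libraries. Without animal IP_509 the hTyr change of Psmb5, IP against input, was 0.38 in place of 0.53. Psmd2 in EYFP input was highest in animal IP_511, at 7.80 (7.798) with the next library at 7.73, a gap of 0.637 of the range of 6. Psmd14 in hTyr input was highest in animal IP_510, at 6.14 (6.143) with the next library at 5.85, a gap of 0.811 of the range of 5.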

How the results depend on the processing

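The counts of members past the threshold in IP against input ran from 30 to 34 in EYFP and from 28 to 34 in hTyr over all alternatives run. None of those alternatives used marker scores as covariates. The counts were 0 throughout for hTyr against EYFP in each fraction and for the interaction. Leaving out 1 animal gave 30 (without animal IP_507) to 34 in EYFP and 28 (without animal IP_509) to 32 in hTyr. With the replicate block, which pairs the libraries of an animal, 34, 32 and 0 members passed in EYFP, in hTyr and for the interaction, and no call changed; with the trends on length and GC content also taken out they were 33, 32 and 0. Median centring ended the calls of Psmb10, Psmd4 and Psmd12 in EYFP and of Psmd3 and Psmd8 in hTyr. Calls were gained in hTyr by Psmf1 with sample quality weights (0.22) and by Psmc1 with the replicate block and the length and GC removal together (-0.14). No called member changed sign under another scaling, which moved the median of all genes by at most 0.07. Core medians stayed between 0.57 and 0.68 in EYFP and between 0.52 and 0.69 in hTyr; the assembly median ran from 0.02 to 0.20 in EYFP and from -0.04 to 0.17 in hTyr.

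Differences that changed sign had not passed in the first place and lie near 0; the cause was not tested. In EYFP, median centring gave -0.005 for Psmd7, -0.048 for Psmg4, -0.015 for Psme1, -0.009 for Psme2 and -0.027 for Psme2b. Quantile normalization gave -0.004 for Psmg4, -0.020 for Psme1 and -0.033 for Psme2b, sample quality weights -0.020 for Psmg4 and -0.018 for Psme2b, and voom -0.003 for Psmg4. In hTyr, median centring gave -0.012 for Psmb8, -0.012 for Psmb10, -0.013 for Psmd7, -0.024 for Psmg3 and -0.003 for Psme2b. Quantile normalization gave -0.003 for Psmb10, -0.015 for Psmg3 and -0.003 for Psme2b, weights 0.009 for Psmd11, and the length and GC removal 0.024 for Psmd9, with or without the replicate block. With 1 animal left out, Psmg4 ran from -0.044 to 0.081 and Psme2b from -0.043 to 0.076 in EYFP. In hTyr, Psmb8 ran from -0.028 to 0.198, Psmb10 from -0.003 to 0.121, Psmg3 from -0.042 to 0.169 and Psmd9 from -0.092 to 0.007. For hTyr against EYFP in the IP, Psmd2 ran from -0.088 to 0.002.

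Strand use, gene copies and reads outside the table limit single genes, and Psmb8 and Psmg4 rest on few reads (from 75 and 134 per library).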
